A study of Mus musculus with 12 samples.

Results

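The 36 genes described here are targets or members of the ATF4 amino acid program, taken by gene symbol from a fixed list out of the 48321 genes in the count table. The list holds 5 transcription factors, 7 stress outputs and feedback genes, 7 enzymes of serine, glycine and one-carbon metabolism, 4 enzymes of asparagine, proline and cysteine synthesis, 6 amino acid transporters and 7 cytosolic tRNA synthetases. Members and lists were chosen with earlier results of these data known. Shares of a list called, set beside those of all genes, are therefore descriptions and not independent tests. All 36 symbols were found, and 35 of them passed a filter that asked for 10 normalized counts or more in any 3 of the 12 libraries, as did 11998 genes in all. Stc2, which encodes a secreted glycoprotein, was below that level in every library, between 0 and 8.73 normalized counts. The cells were murine brown adipocytes grown from preadipocytes of the interscapular brown fat of a wild-type newborn C57BL/6J mouse, immortalized with SV40 large T antigen and stably transduced with lentivirus. A vector line carried empty pLEX and a tSema4B line carried pLEX with a Flag-tagged truncated, soluble form of Semaphorin 4B that stands for the fragment shed by the protease ADAM17. Both lines were differentiated for 8 days and then kept for 6 h in serum-free medium with albumin, either without stimulation or with 2 μM norepinephrine (NE), which activates the β-adrenoceptors of adipocytes. Each of the 4 groups (unstimulated and NE-treated cells of either line) had 3 libraries. There was 1 stable line for each construct, and the series' design text describes the replicates as technical. The p-values therefore measure the spread between libraries and not between independent lines or mice.

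ATF4 is a basic leucine zipper transcription factor whose mRNA is translated more when the initiation factor eIF2 is phosphorylated, as happens in amino acid shortage, endoplasmic reticulum stress or mitochondrial stress. It binds DNA as a dimer with C/EBP proteins at composite C/EBP-ATF response elements (CARE) and raises the transcription of genes for amino acid synthesis, amino acid uptake and tRNA charging. Because ATF4 is controlled largely at translation and protein stability, the level of its own mRNA is only a part of its activity, and the level of the protein was not measured in these libraries.

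The CARE core, TGATGNAA on either strand, is the sequence through which this program is read. It was searched in RefSeq promoters of build GRCm38.p6, each running from 250 bases before to 50 bases after an annotated start. A promoter was on hand for 29 of the 36 genes, and 9 of the 29 (31.0%) held the core, against 4.51% of 27025 genes in the promoter table. A full cAMP response element, TGACGTCA, the palindromic site of the cAMP-responsive factor CREB and a different run of letters from the CARE core, was in 0 of the 29 promoters and in 2.03% of all genes with a promoter. Stretches that hold the core are given here for 8 genes on the strand of the gene, with the 8 bases of the match in capitals, and a match is a description of the letters only.
Asns, chr6:7693214-7693243, minus strand: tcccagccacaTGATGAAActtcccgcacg
Pycr1, chr11:120643818-120643877, minus strand: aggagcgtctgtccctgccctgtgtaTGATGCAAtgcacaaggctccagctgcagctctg
Chac1, chr2:119351023-119351082, plus strand: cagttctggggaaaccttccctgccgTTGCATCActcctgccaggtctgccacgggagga
Atf3, chr1:191183410-191183469, minus strand: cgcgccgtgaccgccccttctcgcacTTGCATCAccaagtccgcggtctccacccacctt
Nupr1, chr7:126625562-126625591, minus strand: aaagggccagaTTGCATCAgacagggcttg
Trib3, chr2:152344028-152344057, minus strand: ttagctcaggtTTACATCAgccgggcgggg
Slc1a4, chr11:20332699-20332728, minus strand: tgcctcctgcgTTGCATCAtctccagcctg
Gars, chr6:55037960-55037989, plus strand: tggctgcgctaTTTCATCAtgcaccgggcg

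By the GENCODE annotation of the same build, the matches of Asns, Nupr1 and Slc1a4 fell in an annotated exon of the gene, that of Atf3 in an intron, and those of Pycr1, Chac1, Trib3 and Gars outside the gene. Psph, Mthfd2, Phgdh and Slc7a1, which differed between the lines after NE, had no match in this window. Slc1a5, Eif4ebp1, Cth, Slc7a5, Mars, Nars and Wars were not in the promoter table.

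Reads counted on genes ranged from 2000780 to 5409583 per library, and within each condition every vector library was deeper than every tSema4B library. Sema4b took 2.04 to 4.02% of the reads in the vector libraries and 7.01 to 10.2% in the tSema4B libraries, so it was higher in every tSema4B library. The line labelled empty vector also held a high level, with means of 116800 normalized counts without stimulation and 74266 after NE. The tSema4B means were 281510 and 234280, so the lines contrast a high with a higher level. The source of the Sema4b reads in the vector line was not tested. The lines also differed in their marker genes. All 10 adipocyte markers (Adipoq, Fabp4, Plin1, Cidec, Cidea, Lpl, Cd36, Pparg, Cebpa and Ucp1) were called lower in tSema4B cells in both conditions, and their summed level was 40603 to 46387 normalized counts in vector unstimulated, 6735 to 9540 in tSema4B unstimulated, 54085 to 65688 in vector NE and 10737 to 12158 in tSema4B NE. Ucp1, which encodes the uncoupling protein of brown fat, was at 0 in the 3 tSema4B unstimulated libraries. Cidea passed the filter only through the vector line, so its lower calls are not taken as results. Of 10 fibroblast and preadipocyte markers, 8 were tested and 6 were called higher in unstimulated and 7 in NE-treated tSema4B cells, with sums of 15080 to 15832, 28711 to 33034, 12318 to 14780 and 27253 to 29077 in the same order of groups. Mitochondrially encoded genes took 13.4 to 16.7% of the reads in vector libraries and 6.91 to 7.89% in tSema4B libraries. Macrophage markers summed to at most 24.6 and endothelial markers to at most 21.9 normalized counts in any library, with Adgre1, Ptprc and Kdr at 0 in every library. The part of this difference in markers in the differences between the lines was not tested, and in bulk RNA fewer cells of a type and less RNA per cell cannot be told apart.

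The comparison of tSema4B with vector cells asks how gene expression differed between the line with the soluble semaphorin fragment and the vector line. With 1 stable line for each construct, an effect of the fragment cannot be told apart from other differences between the lines. The 3 serine synthesis enzymes, the mitochondrial one-carbon enzymes Shmt2 and Mthfd2 and the glutamine transporter Slc1a5 were lower in the tSema4B line, with and without NE, while the asparagine synthetase gene and most tRNA synthetase genes did not pass the test. Without stimulation 8 of the 35 genes tested were called lower (adjusted p up to 0.05), where 7.39% of all genes tested were called lower, and 0 were called higher, where the share of all genes was 5.64%. The 8 were Slc1a5, Psph, Mthfd2, Eif4ebp1, Phgdh, Psat1, Mars and Shmt2. After NE 12 were called lower, against 11.2% of all genes, and 0 higher, against 9.79%. Slc1a5, Psph, Mthfd2, Eif4ebp1, Phgdh, Psat1 and Shmt2 were lower in both conditions, and the further 5 after NE were Slc7a1, Shmt1, Chac1, Atf4 and Slc3a2. At an unadjusted limma p under 0.05, 1 gene was higher and 12 lower in tSema4B cells without stimulation, and 3 higher and 15 lower after NE. The share of all genes at this unadjusted limit was not counted, so no excess is read from these counts. On the whole reads edgeR and DESeq2 kept each of the 8 and 12 lower calls. They called 1 and 1 members higher without stimulation, where they called 657 and 768 of 11998 genes higher. After NE they called 1 and 3 members higher, where they called 1268 and 1379 of all genes higher.

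The median log2 fold change of the 35 genes was -0.29 without stimulation and -0.27 after NE, against -0.0025 and -0.010 over all genes tested. Levels in tSema4B cells were below those of vector cells for 25 genes without stimulation, for 26 after NE and for 23 in both. The 2 comparisons use different libraries of the same 2 lines, and their log2 fold changes had a Pearson r of 0.865 over the 35 genes and of 0.618 over the 11998 genes tested. The summed level of the 36 genes was 12559 to 13197 normalized counts in vector and 10487 to 11952 in tSema4B cells without stimulation, and 14401 to 15424 and 12439 to 13349 after NE, so the sums did not overlap in either condition. The split of all called genes moved with the scaling, from 43.3% higher without stimulation to 27.8% when libraries were scaled over genes not encoded in mitochondria, and from 46.7% higher after NE to 61.6% when every library was scaled to the same total. Scaling to the same total lost the calls of Mars without stimulation and of Atf4, Chac1 and Slc3a2 after NE, and the members called higher became 1 without stimulation and 3 after NE.

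**Figure D1:**
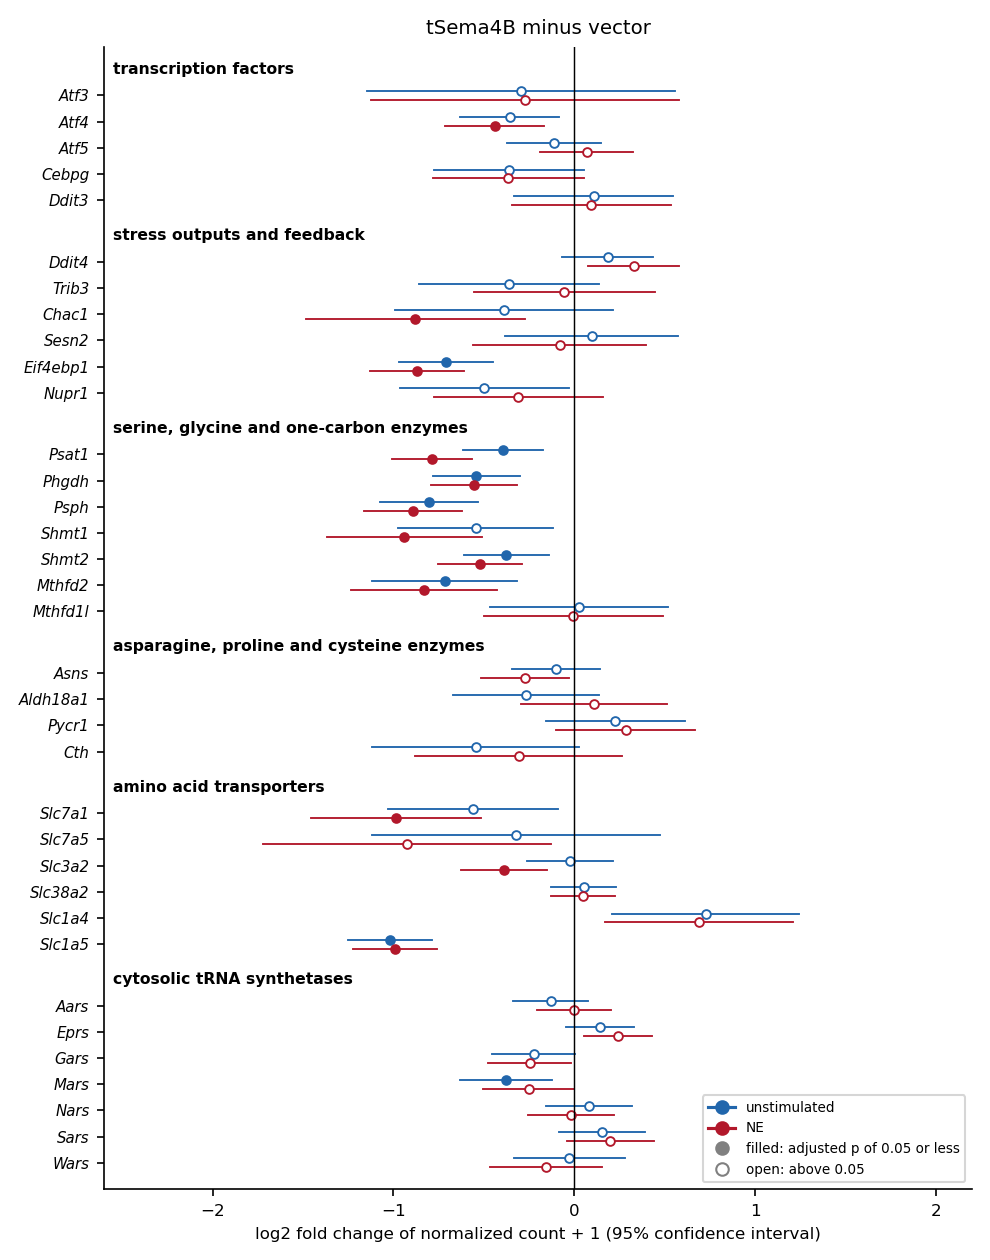
Log2 fold change of tSema4B against vector cells (x axis, log2 of normalized count + 1) for the 35 genes tested, by role, without stimulation in blue and after NE in red. Points are limma estimates, lines 95% confidence intervals, and filled points passed an adjusted p of 0.05. The 8 and 12 filled points all lie left of 0, and 5 of the 8 and 6 of the 12 are serine, glycine and one-carbon enzymes.

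The 3 enzymes that make serine from the glycolytic intermediate 3-phosphoglycerate were all lower in both conditions. Gene positions here and in what follows are those of GENCODE on GRCm38. Phgdh (chr3:98313170-98339990, minus strand), the dehydrogenase that commits carbon to this route, gave 479.99, 524 and 512 normalized counts in the vector unstimulated libraries and 389, 325 and 329.9 in the tSema4B unstimulated libraries. After NE it gave 398, 426 and 452 in vector and 268, 279 and 322 in tSema4B libraries. Every vector library lay above every tSema4B library of its condition, a 1.46-fold and a 1.47-fold difference (log2 -0.54 ± 0.12 and -0.55 ± 0.12 (SE), limma adjusted p = 0.00247 and 0.00144). Phgdh has 13 near-identical genes and pseudogenes in the annotation that could share its reads; the 7 of them in the table summed to 169.6 to 206.8 normalized counts in vector libraries and 99.1 to 145.4 in tSema4B libraries, so they were lower in the same line. Psat1 (chr19:15904678-15947337), the aminotransferase of the second step, averaged 1110.00 ± 136 (SD, n = 3) in vector and 842 ± 84.7 in tSema4B cells without stimulation, and 1165 ± 32.9 and 679 ± 89.9 after NE. Its difference was 1.32-fold without stimulation (log2 -0.40 ± 0.11, limma adjusted p = 0.0148) and 1.72-fold after NE (log2 -0.79 ± 0.11, limma adjusted p = 1.32e-05), with no overlap between the lines. The call without stimulation was lost without vector unstimulated replicate 1 (adjusted p = 0.118) and without tSema4B unstimulated replicate 1 (0.072) or 3 (0.0507).

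Psph (chr5:129765558-129787449), the phosphatase of the last step, gave 296, 267 and 246 in vector unstimulated, 153, 148 and 160.2 in tSema4B unstimulated, 323, 347 and 353 in vector NE and 176, 199.8 and 174 in tSema4B NE libraries. The highest tSema4B library, after NE, lay below the lowest vector library of either condition. The log2 fold change was -0.80 ± 0.13 without stimulation and -0.89 ± 0.13 after NE (limma adjusted p = 0.000147 and 3.58e-05). Psph shares 452 exon bases with a transcript of Cct6a on the other strand, and these cDNA libraries do not mark the strand, so reads of this stretch cannot be assigned to one or the other.

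The hydroxymethyltransferases and the folate enzymes pass the carbon of serine on. Of these, Mthfd2 and Shmt2 were called lower in both conditions, Shmt1 after NE but not without stimulation, and Mthfd1l in neither. Mthfd2 (chr6:83305691-83325908), the mitochondrial methylenetetrahydrofolate dehydrogenase, gave 228, 201 and 146 in vector and 98.9, 136 and 111 in tSema4B libraries without stimulation. After NE the values were 296, 244 and 250.1 and 117, 190.3 and 143. The lines did not overlap in either condition, and the differences were 1.64-fold and 1.78-fold (log2 -0.72 ± 0.19 and -0.83 ± 0.19, limma adjusted p = 0.0152 and 0.00362). Shmt2, the mitochondrial serine hydroxymethyltransferase, gave 399, 413 and 398 and 343, 312 and 279 without stimulation and 617, 509.7 and 536 and 399.98, 370.2 and 384 after NE in the same order of lines, again without overlap (log2 -0.37 ± 0.11 and -0.52 ± 0.11, limma adjusted p = 0.0294 and 0.00197). The unstimulated call of Mthfd2 was lost without vector unstimulated replicate 1 or 2 or tSema4B unstimulated replicate 1 (adjusted p between 0.068 and 0.103), and that of Shmt2 without any library of the 2 groups except tSema4B unstimulated replicate 1 (between 0.0565 and 0.116) and in a fit on the compared libraries alone (0.0577). Shmt1, the cytosolic form, which shares 184 exon bases with Smcr8 on the other strand, gave 181, 193 and 134 in vector and 97.7, 102 and 151 in tSema4B libraries without stimulation, where the lines overlapped and the test was not passed (log2 -0.54 ± 0.21, limma adjusted p = 0.0881). After NE it gave 306, 252 and 266 and 110.5, 194 and 135, with no overlap and a 1.92-fold lower mean in tSema4B cells (log2 -0.94 ± 0.21, limma adjusted p = 0.00227). Mthfd1l, the mitochondrial formyltetrahydrofolate synthetase, had a log2 fold change of 0.03 without stimulation (95% interval -0.47 to 0.52) and of -0.00 after NE (-0.50 to 0.49). Of the 7 genes of this group, 5 were called lower without stimulation and 6 after NE, which is 71.4% and 85.7% beside 7.39% and 11.2% of all genes tested. Their median log2 fold change was -0.54 and -0.79, against -0.0025 and -0.010 over all genes. The group was chosen with earlier results of these data known, so these shares and medians describe it and are not an independent test.

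**Figure D2:**
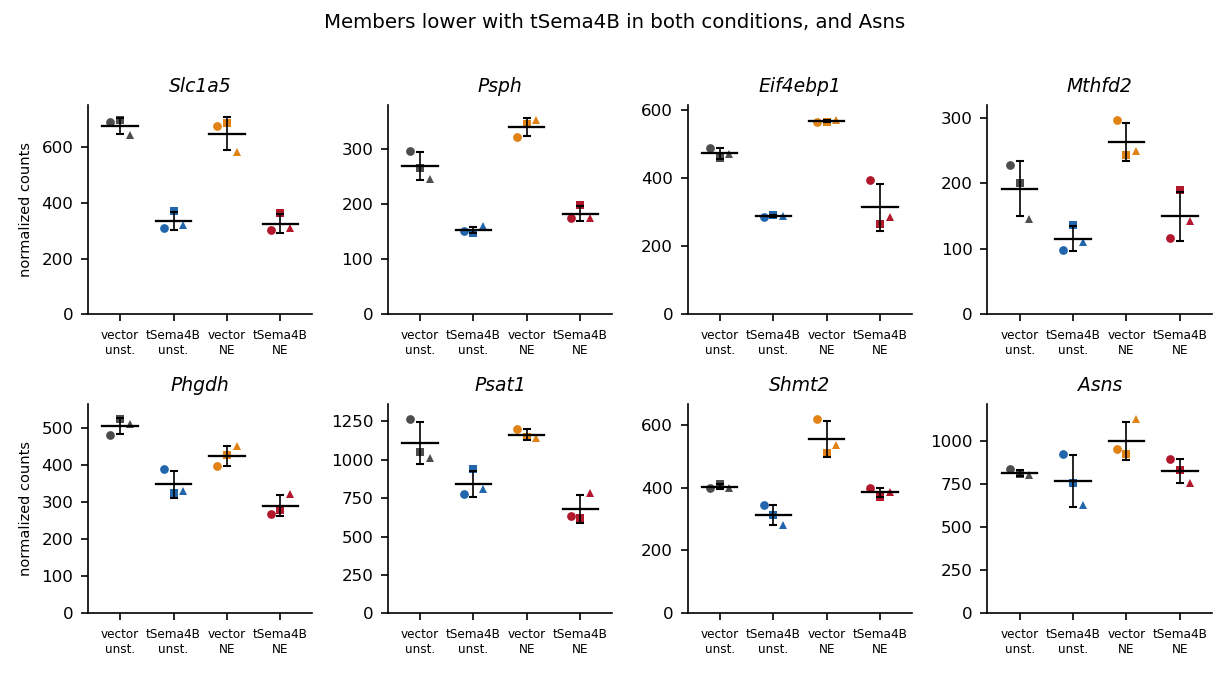
Normalized counts (y axis, linear, from 0) of the 7 genes called lower with tSema4B in both conditions, and of Asns, in each of the 12 libraries. Symbols are the 3 libraries of a group, bars the mean and SD. In the first 7 panels the tSema4B libraries lie below the vector libraries of their condition, and for Slc1a5 the 6 tSema4B libraries lie between 303 and 369.7 and the 6 vector libraries between 579 and 694, while for Asns the lines overlap without stimulation.

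Among the amino acid transporters the largest difference of the whole program was that of Slc1a5 (chr7:16781340-16798274, plus strand), the sodium-coupled exchanger that brings glutamine and other neutral amino acids into the cell. It gave 688, 694 and 643 in vector unstimulated and 309.9, 369.7 and 320.4 in tSema4B unstimulated libraries, and 675, 685 and 579 in vector NE and 303, 364 and 308 in tSema4B NE libraries. The tSema4B line held a 2.03-fold lower level without stimulation (log2 -1.02 ± 0.11, limma adjusted p = 9.51e-07) and a 1.99-fold lower level after NE (log2 -0.99 ± 0.11, limma adjusted p = 1.50e-06). Slc7a1 (chr5:148327410-148399904, minus strand), the cationic amino acid transporter for arginine and lysine, gave 103, 79.9 and 88.2 in vector and 69.1, 78.9 and 41.1 in tSema4B libraries without stimulation, which did not overlap but did not pass the test (log2 -0.56 ± 0.23, limma adjusted p = 0.113). After NE it gave 199, 152 and 178 in vector and 92.2, 76.7 and 96.5 in tSema4B libraries, a 1.98-fold lower level (log2 -0.99 ± 0.23, limma adjusted p = 0.00322).

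Slc3a2, the heavy chain shared by several amino acid exchangers, averaged 462 ± 13.5 and 455 ± 29.7 without stimulation, a log2 fold change of -0.02 with a 95% interval of -0.26 to 0.22. After NE it averaged 627 ± 50.3 in vector and 481 ± 76.8 in tSema4B cells (log2 -0.39 ± 0.11, limma adjusted p = 0.0177), a call that was lost when libraries were scaled to the same total (adjusted p = 0.0756) and without vector NE replicate 1 or 3 or tSema4B NE replicate 2 or 3 (between 0.0572 and 0.0981). Slc7a5, the light chain that pairs with Slc3a2 to carry large neutral amino acids, was at 65.5 ± 7.91 in vector NE and 35.5 ± 14.3 in tSema4B NE cells and did not pass the test (log2 -0.92 ± 0.38, limma adjusted p = 0.0929). Slc1a4, a neutral amino acid carrier of the same family as Slc1a5, had the opposite sign. It averaged 59.3 ± 5.79 in vector and 102 ± 32.01 in tSema4B cells without stimulation and 68.04 ± 15.1 and 110.1 ± 20.9 after NE, the lines did not overlap in either condition, and the log2 fold changes of 0.73 ± 0.25 and 0.69 ± 0.25 missed the threshold (limma adjusted p = 0.0592 and 0.053), whereas edgeR and DESeq2 on the whole reads called it in both conditions. Slc38a2, a neutral amino acid carrier induced by amino acid shortage, differed by 0.05 (95% interval -0.13 to 0.23) and 0.05 (-0.13 to 0.23) on the log2 scale.

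Of the transcription factors Atf4 was the one called. Atf4 (chr15:80255184-80257541, plus strand) gave 397, 457 and 461 in vector and 341, 388 and 301 in tSema4B libraries without stimulation, which did not overlap but did not pass the test (log2 -0.36 ± 0.13, limma adjusted p = 0.0793). After NE it gave 634, 554 and 465 in vector and 451, 406 and 355 in tSema4B libraries, again without overlap, a 1.36-fold lower level (log2 -0.44 ± 0.13, limma adjusted p = 0.0196). That call was lost when libraries were scaled to the same total (adjusted p = 0.0656) and without vector NE replicate 1 or 2 or tSema4B NE replicate 3 (between 0.0611 and 0.126). Atf3, a stress-induced repressor of the same family, gave 14.1, 30.3 and 28.3 in vector unstimulated, 27.4, 17.02 and 13.7 in tSema4B unstimulated, 72.6, 24.9 and 39.3 in vector NE and 33.2, 28.4 and 42.3 in tSema4B NE libraries, and the lines overlapped in both conditions. Ddit3, which encodes the stress factor CHOP, gave 128, 121 and 150.3 in vector and 167, 133 and 131 in tSema4B libraries without stimulation. After NE it gave 95.4, 136 and 103 in vector and 153, 128 and 83.2 in tSema4B libraries, and the lines overlapped in both conditions, with 95% intervals of -0.33 to 0.55 and -0.34 to 0.53 for the log2 fold change. Cebpg, the C/EBP partner of ATF4, had a log2 fold change of -0.36 in both conditions (limma adjusted p = 0.268 and 0.215). Atf5, which is under the same translational control as Atf4, had log2 fold changes of -0.11 and 0.07.

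Eif4ebp1 (chr8:27260329-27276674, plus strand) was the 1 gene of the stress outputs and feedback group called lower in both conditions. Its product binds the cap-binding factor eIF4E and holds back cap-dependent translation. It gave 489, 458 and 473 in vector unstimulated, 286, 291 and 289 in tSema4B unstimulated, 566, 567 and 570.3 in vector NE and 394, 265 and 287 in tSema4B NE libraries, with all 6 tSema4B libraries below all 6 vector libraries. The log2 fold changes were -0.71 ± 0.13 and -0.87 ± 0.13 (limma adjusted p = 0.000368 and 2.88e-05). Chac1, whose product breaks down glutathione, gave 60.8, 30.3 and 41.4 in vector and 34.6, 29.4 and 32.9 in tSema4B libraries without stimulation, with overlap, and 83.3, 59.3 and 62.2 and 34.3, 35.03 and 39.6 after NE, without overlap. Its call after NE (log2 -0.88 ± 0.29, limma adjusted p = 0.0349) was lost without each library of the 2 groups except tSema4B NE replicate 3 (adjusted p between 0.0589 and 0.16), with no filter on low genes (0.0648) and with scaling to the same total (0.0574). Ddit4, an inhibitor of mTORC1 signalling, lay above the vector level and was not called (log2 0.19 ± 0.12 and 0.33 ± 0.12, limma adjusted p = 0.357 and 0.0575). Trib3, Sesn2 and Nupr1, a pseudokinase, a leucine sensor of the mTORC1 pathway and a small stress-induced chromatin protein, were not called in either condition, with log2 fold changes between -0.50 (Nupr1, unstimulated) and 0.10 (Sesn2, unstimulated).

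Asns (chr6:7675169-7693254, minus strand), the asparagine synthetase and the textbook target of ATF4, did not pass the test. It gave 834, 807 and 798 in vector and 924, 752 and 626 in tSema4B libraries without stimulation, and these overlapped. After NE it gave 949, 922 and 1124 in vector and 892, 827 and 754 in tSema4B libraries, which did not overlap. The log2 fold change was -0.10 ± 0.12 without stimulation and -0.27 ± 0.12 after NE (limma adjusted p = 0.636 and 0.102), and the 95% intervals were -0.34 to 0.14 and -0.52 to -0.03. Aldh18a1 and Pycr1, the first and last enzymes of proline synthesis, and Cth, the cystathionine lyase that yields cysteine, were not called either, with log2 fold changes between -0.54 (Cth, unstimulated) and 0.28 (Pycr1, NE). None of these 4 genes was called in any comparison.

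Of the 7 cytosolic tRNA synthetases 1 was called lower without stimulation, 14.3% beside 7.39% of all genes, and 0 after NE. The gene was Mars, which charges methionine tRNA, at 357 ± 29.9 in vector and 276 ± 34.8 in tSema4B cells without stimulation (log2 -0.38 ± 0.12, limma adjusted p = 0.0436), and that call was lost under 8 of 17 alternatives, among them no filter (adjusted p = 0.0685), scaling to the same total (0.064) and leaving out vector unstimulated replicate 1 or 2 or tSema4B unstimulated replicate 2 or 3 (between 0.107 and 0.179). Mars shares 68 exon bases with Ddit3 on the other strand. The group's median log2 fold change was -0.03 without stimulation and -0.02 after NE. Eprs, the glutamyl-prolyl synthetase, lay above the vector level after NE without passing the test (log2 0.24 ± 0.09, limma adjusted p = 0.0582). Aars, Gars, Nars, Sars and Wars, which charge alanine, glycine, asparagine, serine and tryptophan tRNA, had log2 fold changes between -0.25 (Gars, NE) and 0.20 (Sars, NE), and Aars shares 1326 exon bases with Exosc6 on the same strand.

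The call counts between the lines depended on single libraries without stimulation and less so after NE. Without vector unstimulated replicate 1 the count of 8 became 4, and without vector unstimulated replicate 2 it became 5, while leaving out each library in turn after NE gave 9 to 11. Slc1a5, Psph, Phgdh and Eif4ebp1 passed the test in both conditions under all 17 alternatives that kept the adjusted p threshold.

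The comparison of NE with unstimulated cells asks how the program answers to β-adrenergic stimulation in each line. In vector cells the arginine transporter Slc7a1, the folate enzymes Mthfd1l and Shmt1 and the synthetase gene Eprs had the largest rises among the genes that passed the test. In all, 7 genes were called higher in vector cells, where 6.82% of all genes tested were called higher, and 1 was called lower, where the share was 4.78%. The 7 were Slc7a1, Mthfd1l, Shmt1, Eprs, Shmt2, Slc3a2 and Gars, and the 1 that fell was Atf5. In tSema4B cells 2 were called higher, Eprs and Ddit4, against 3.68% of all genes, and 0 lower, against 2.58%. At an unadjusted limma p under 0.05, 10 of the 35 genes were higher and 3 lower with NE in tSema4B cells, and 15 higher and 2 lower in vector cells. Here too the share of all genes at the unadjusted limit was not counted. The median log2 fold change of the 35 genes was 0.29 in vector and 0.23 in tSema4B cells, against -0.019 and -0.0048 over all genes tested, and 30 and 27 of them lay above 0. Marker genes also moved with NE. Of the 10 adipocyte markers 2 were called higher and 2 lower in vector and 4 higher and 0 lower in tSema4B cells, and of the 8 fibroblast markers tested 1 was higher and 3 lower in each line. Csf1r, the 1 macrophage marker tested, was at 0 to 2.74 normalized counts without stimulation and at 9.65 to 19.8 with NE. It passed the filter only through its NE libraries, so no call is drawn from it. The part of these markers in the NE values was not tested.

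**Figure D3:**
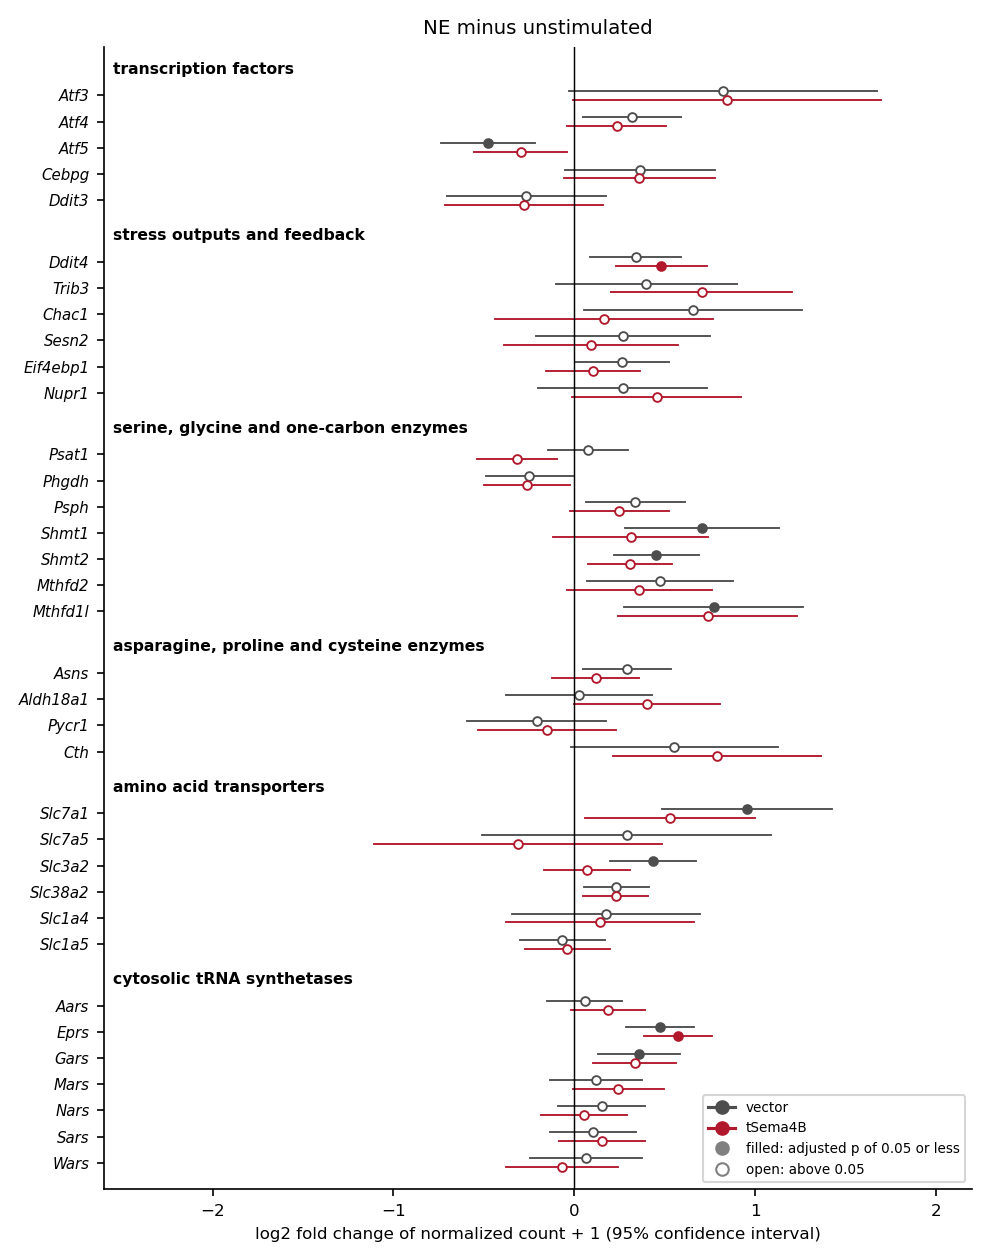
Log2 fold change of NE-treated against unstimulated cells (x axis, log2 of normalized count + 1) for the 35 genes tested, by role, in vector cells in grey and tSema4B cells in red. Points are limma estimates, lines 95% confidence intervals, and filled points passed an adjusted p of 0.05. Eprs is filled in both lines, Atf5 is the filled point left of 0, and the intervals of the 2 lines overlap for every gene.

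Slc7a1 had the largest rise. Its vector libraries went from 103, 79.9 and 88.2 to 199, 152 and 178, a 1.94-fold higher level with no overlap (log2 0.96 ± 0.23, limma adjusted p = 0.00768). In tSema4B cells the libraries held 69.1, 78.9 and 41.1 without and 92.2, 76.7 and 96.5 with NE and overlapped (log2 0.53 ± 0.23, limma adjusted p = 0.187). Slc3a2 rose 1.35-fold in vector cells (log2 0.44 ± 0.11, limma adjusted p = 0.0144), and its log2 fold change in tSema4B cells was 0.07 (95% interval -0.17 to 0.31). The vector call of Slc3a2 was lost without vector unstimulated replicate 1 or vector NE replicate 1 or 3 (adjusted p between 0.0583 and 0.0757). Slc38a2 lay higher in both lines without passing the test (log2 0.23 ± 0.09 and 0.23 ± 0.09, limma adjusted p = 0.0868 and 0.122), and the values of Slc1a5 lay near 0 (log2 -0.07, 95% interval -0.30 to 0.17, in vector and -0.04, -0.27 to 0.20, in tSema4B cells).

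Of the one-carbon enzymes, Mthfd1l gave 66.2, 89.1 and 94.8 without and 137, 132 and 156 with NE in vector libraries (log2 0.77 ± 0.24, limma adjusted p = 0.0378). In tSema4B libraries it gave 114, 94.4 and 54.8 without and 176, 138 and 115 with NE, which did not overlap but did not pass the test (log2 0.74 ± 0.24, limma adjusted p = 0.0692). The interaction for this gene was -0.03 ± 0.34 (95% interval -0.73 to 0.67). Shmt1 rose 1.63-fold (log2 0.71 ± 0.21, limma adjusted p = 0.028) and Shmt2 1.37-fold (log2 0.45 ± 0.11, limma adjusted p = 0.0102) in vector cells, and in tSema4B cells their log2 fold changes were 0.31 ± 0.21 and 0.31 ± 0.11, neither of which passed the test. None of the 3 serine synthesis enzymes was called. Psph lay higher after NE (log2 0.34 in vector and 0.25 in tSema4B cells), Phgdh lower (-0.25 and -0.26), and Psat1 had 0.08 and -0.31. The vector calls of Mthfd1l and Shmt1 were each lost with no filter on low genes (adjusted p = 0.0772 and 0.0602) and without 5 of the 6 libraries, for Mthfd1l all but vector unstimulated replicate 3 (between 0.0709 and 0.174) and for Shmt1 all but vector unstimulated replicate 2 (between 0.0515 and 0.15), while Shmt2 was lost without vector NE replicate 1 (0.0717). That of Mthfd1l was also lost when libraries were scaled to the same total (0.0504).

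**Figure D4:**
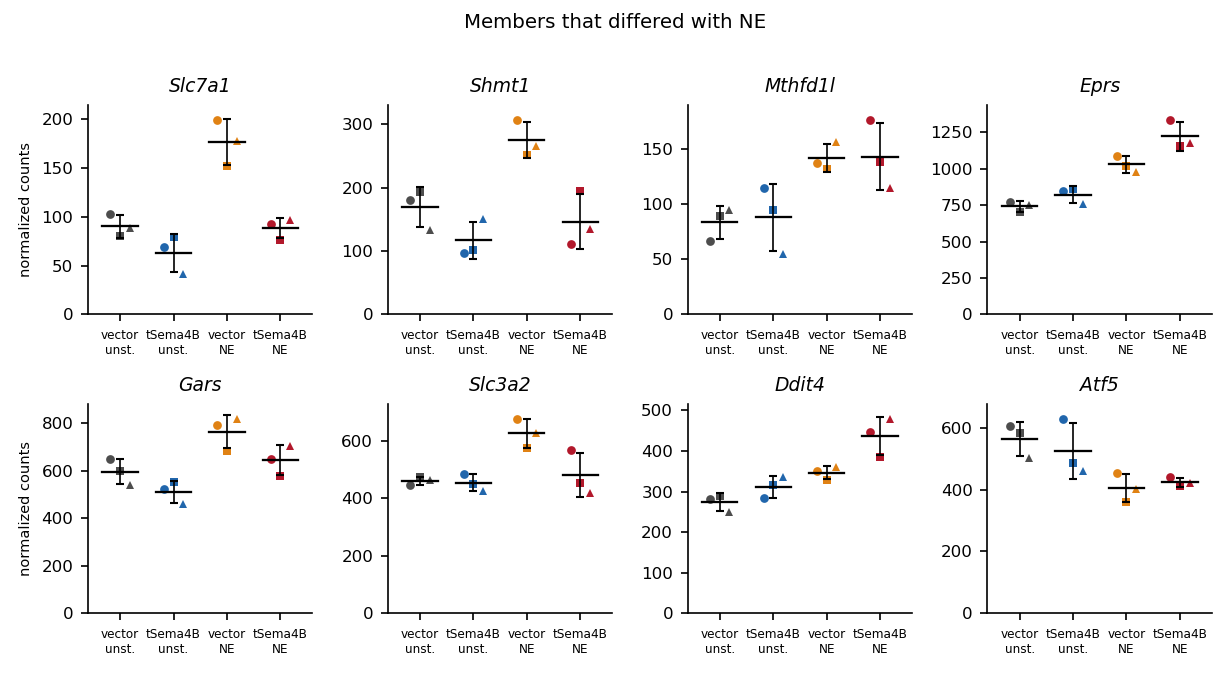
Normalized counts (y axis, linear, from 0) of 8 genes that were called between NE-treated and unstimulated cells in at least 1 line, in each of the 12 libraries. Symbols are the 3 libraries of a group, bars the mean and SD. The Eprs libraries with NE lie above those without in both lines, between 978 and 1332 against 699.5 to 863, whereas the Slc7a1 libraries of tSema4B cells overlap.

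Eprs was the gene that rose in both lines. Its vector libraries gave 772, 699.5 and 753 without and 1089, 1021 and 978 with NE, and its tSema4B libraries 844, 863 and 754 and 1332, 1156 and 1175. Every NE library of either line was above every unstimulated library, with a 1.39-fold rise in vector (log2 0.47 ± 0.09, limma adjusted p = 0.00146) and a 1.49-fold rise in tSema4B cells (log2 0.57 ± 0.09, limma adjusted p = 0.000306). Gars rose 1.28-fold in vector cells (log2 0.36 ± 0.11, limma adjusted p = 0.0367) and had nearly the same difference in tSema4B cells without passing the test (log2 0.34 ± 0.11, limma adjusted p = 0.0749). The vector call of Gars was lost with no filter (adjusted p = 0.0768), with scaling to the same total (0.0684), with quantile normalization (0.106) and without vector unstimulated replicate 2 or 3 or vector NE replicate 1 or 3 (between 0.0872 and 0.169). The other 5 synthetases of the list were not called, with log2 fold changes from -0.07 (Wars, tSema4B) to 0.24 (Mars, tSema4B).

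Among the factors, Atf5 gave 606, 584 and 502 without and 454, 361 and 402 with NE in vector libraries, and was 1.39-fold lower with NE (log2 -0.48 ± 0.12, limma adjusted p = 0.0141). In tSema4B libraries it gave 628, 486 and 461 and 439.7, 411 and 422, without overlap and without a call (log2 -0.29 ± 0.12, limma adjusted p = 0.179). The vector call was lost without vector unstimulated replicate 1 or 2 or vector NE replicate 2 or 3 (adjusted p between 0.0543 and 0.0847), and the 82 exon bases that Atf5 shares with Nup62 and Il4i1 on the other strand could not be assigned. Atf4 lay higher with NE in both lines and was not called (log2 0.32 ± 0.13 and 0.24 ± 0.13, limma adjusted p = 0.13 and 0.333). Atf3 had the largest estimates of the factors and the widest intervals (-0.03 to 1.68 in vector and -0.01 to 1.70 in tSema4B cells on the log2 scale), on 10 to 108 reads a library. Ddit4 gave 284, 316 and 337 without and 447, 385 and 478 with NE in tSema4B libraries, a 1.4-fold rise (log2 0.48 ± 0.12, limma adjusted p = 0.0177), and 282, 290.1 and 249 and 351, 328 and 360.1 in vector libraries, which did not overlap but did not pass the test (log2 0.34 ± 0.12, limma adjusted p = 0.0746). The call of Ddit4 was lost without tSema4B unstimulated replicate 1 (adjusted p = 0.08) or tSema4B NE replicate 3 (0.0813) and in a fit on the compared libraries alone (0.0707). Asns lay higher in both lines without a call (log2 0.29 ± 0.12 and 0.12 ± 0.12, limma adjusted p = 0.12 and 0.637). So did Cth (log2 0.55 ± 0.28 and 0.79 ± 0.28, limma adjusted p = 0.229 and 0.0965). Trib3 (0.40 ± 0.24 and 0.71 ± 0.24, 0.337 and 0.0885) and Chac1 (0.66 ± 0.29 and 0.17 ± 0.29, 0.166 and 0.815) did likewise. In tSema4B cells Cth and Trib3 did not overlap between conditions. Of the 35 genes, 5 lay below 0 in vector and 8 in tSema4B cells.

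The count of 7 genes called higher with NE in vector cells became 4 without vector unstimulated replicate 1, 2 without vector NE replicate 1 and 3 without vector NE replicate 3. Slc7a1 and Eprs were called under all 17 alternatives that kept the adjusted p threshold.

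The test of the interaction asks whether the response to NE differed between the lines. A positive estimate means that the log2 fold change with NE was higher in tSema4B than in vector cells. The test called 0 of the 35 genes, against 0.025% of all genes called with a positive and 0.0% with a negative estimate. On the whole reads 0 members were called by edgeR, which called 3 genes positive and 1 negative among all tested, and 0 by DESeq2, which called 27 and 47. By limma 2 of the 35 genes had an unadjusted p under 0.05, against 1227 of 11998 genes tested. The 2 were Psat1 (log2 -0.39 ± 0.15, limma adjusted p = 0.357) and Slc3a2 (log2 -0.37 ± 0.16, limma adjusted p = 0.424). For Slc7a1, called with NE in the vector line and not in the tSema4B line, the interaction was -0.43 ± 0.32 with a 95% interval of -1.09 to 0.24, so a difference between the lines in its response was not shown. Estimates were below 0 for 22 of the 35 genes, and for 5891 of the 11998 genes tested.

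Other genes of the same pathways were read from further lists. Of 17 other cytosolic tRNA synthetases and proteins of the synthetase complex, 1 was called higher and 1 lower in tSema4B cells without stimulation, and 0 higher and 7 lower after NE. The lower calls were 5.88% and 41.2% of the list, where all genes had 7.39% and 11.2%, and the higher call without stimulation was 5.88%, where all genes had 5.64%. Lars, for leucine, rose (log2 0.35 ± 0.11, limma adjusted p = 0.0357) and Cars, for cysteine, fell without stimulation (log2 -0.84 ± 0.18, limma adjusted p = 0.00284). Eef1e1, a scaffold protein of the multi-synthetase complex, averaged 122 ± 14.5 in vector unstimulated, 91.5 ± 20.6 in tSema4B unstimulated, 305 ± 29.2 in vector NE and 149 ± 34.6 in tSema4B NE cells. It was 2.07-fold lower in tSema4B cells after NE (limma adjusted p = 0.000463), and it rose with NE 2.49-fold in vector and 1.62-fold in tSema4B cells (limma adjusted p = 8.42e-05 and 0.0315). Iars, for isoleucine, was lower in tSema4B cells after NE (log2 -0.72 ± 0.23, limma adjusted p = 0.0317). With NE, 6 of the 17 rose in vector cells and 2 in tSema4B cells and 0 fell in either (35.3% and 11.8% higher, against 6.82% and 3.68% of all genes), among them Aimp2, another scaffold protein (log2 0.90 ± 0.18 in vector cells, limma adjusted p = 0.0019), and Tars, for threonine (log2 0.37 ± 0.10 in tSema4B cells, limma adjusted p = 0.0263).

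Of 17 mitochondrial tRNA synthetases, 1 was called higher and 0 lower in tSema4B cells without stimulation and 0 higher and 2 lower after NE. The 5.88% higher without stimulation and 11.8% lower after NE were near the 5.64% and 11.2% of all genes. The one higher was Lars2 (log2 0.59 ± 0.17, limma adjusted p = 0.0242), and the lower ones were Mars2 (log2 -1.07 ± 0.37, limma adjusted p = 0.0409) and Yars2 (log2 -0.70 ± 0.22, limma adjusted p = 0.0283). Yars2 was also the 1 gene of this list that rose with NE in vector cells (log2 0.69 ± 0.22, limma adjusted p = 0.0463), and 0 changed with NE in tSema4B cells. Its share in vector cells, 5.88%, compares with 6.82% of all genes.

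The factors upstream of Atf4 were read in a list of 14 genes for eIF2 kinases, their regulators, eIF2 phosphatase subunits and eIF2B. In tSema4B cells 1 was called lower without stimulation and 4 lower and 1 higher after NE, and with NE 2 rose in vector cells, with 0 called lower there and 0 called in tSema4B cells. The 7.14% lower without stimulation and 7.14% higher after NE were near or under the 7.39% and 9.79% of all genes, the 28.6% lower after NE stood beside 11.2%, and the 14.3% that rose with NE beside 6.82%. Eif2s1, the eIF2 subunit that is phosphorylated, averaged 599.8 ± 40.9, 458 ± 20.6, 910.2 ± 105 and 591 ± 75.9 in unstimulated vector, unstimulated tSema4B, NE-treated vector and NE-treated tSema4B cells. It was lower in tSema4B cells in both conditions (log2 -0.39 ± 0.11 and -0.62 ± 0.11, limma adjusted p = 0.0217 and 0.000311) and rose with NE in vector cells (log2 0.60 ± 0.11, limma adjusted p = 0.00105). Eif2b3, a subunit of the exchange factor, was 2.00-fold lower (limma adjusted p = 0.00475) and Impact, which restrains the kinase GCN2, higher (log2 0.61 ± 0.19, limma adjusted p = 0.0208) in tSema4B cells after NE. Eif2b2 rose with NE in vector cells (log2 0.63 ± 0.16, limma adjusted p = 0.0105). The kinase genes Eif2ak1, Eif2ak2, Eif2ak3 and Eif2ak4 were not called in any of these comparisons.

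The 25 tested of 26 other reported ATF4 targets had calls in both directions, with Tars and Lars also in the synthetase list above. In tSema4B cells 5 were higher and 3 lower without stimulation and 5 higher and 4 lower after NE. The lower shares were 12.0% and 16.0%, where all genes had 7.39% and 11.2%. They count Slc7a3 and Ndufa4l2, which passed the filter only through the vector line, so no excess is read from them. The higher shares were 20% in both conditions, against 5.64% and 9.79% of all genes. Without stimulation Gadd45a, a growth arrest gene, and Slc38a1, a glutamine carrier, were higher (log2 1.20 ± 0.33 and 0.70 ± 0.21, limma adjusted p = 0.0157 and 0.0294). Cbs, the cystathionine synthase, and Vldlr, a lipoprotein receptor, were higher after NE (log2 1.92 ± 0.59 and 0.43 ± 0.12, limma adjusted p = 0.0224 and 0.0127). Slc7a3, a further arginine transporter, was low throughout, at 13.03, 22.7 and 26.1 in vector and 0, 0 and 5.48 in tSema4B libraries without stimulation. Ndufa4l2, which shares 32 exon bases with Shmt2 on the other strand, averaged 37.5 in vector and 12.7 in tSema4B cells without stimulation. After NE it averaged 32.3 and 4.60. Slc7a3 and Ndufa4l2 passed the filter only through the vector line, so their lower calls, which are counted above, are not taken as results. With NE 1 rose and 3 fell in vector cells and 2 rose and 1 fell in tSema4B cells, which is 4.00% and 12.0% against 6.82% and 4.78% of all genes in vector cells and 8.00% and 4.00% against 3.68% and 2.58% in tSema4B cells. Tars rose in vector cells (log2 0.53 ± 0.10), Herpud1 and Aldh1l2 fell there (log2 -0.68 ± 0.15 and -0.65 ± 0.13, limma adjusted p = 0.0047 and 0.00237), Cdkn1a rose in tSema4B cells (log2 0.86 ± 0.12, limma adjusted p = 0.000101) and Sqstm1, an autophagy receptor, fell there (log2 -0.31 ± 0.07, limma adjusted p = 0.00611).

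The endoplasmic reticulum chaperones and sensors of the unfolded protein response, a stress branch driven mainly by factors other than ATF4, were near level between the lines. Of 18 genes, 1 was lower and 0 higher in tSema4B cells without stimulation and 1 lower and 1 higher after NE. Each of these single calls is 5.56% of the list, under the 7.39% of all genes lower without stimulation and the 11.2% lower and 9.79% higher after NE. The lower one was Xbp1 in both conditions (log2 -0.35 ± 0.11 and -0.31 ± 0.11, limma adjusted p = 0.0335 and 0.0422), and the higher one was Calr (log2 0.36 ± 0.07, limma adjusted p = 0.000584). Their summed level was 15368 to 16213 normalized counts in vector unstimulated and 15215 to 16265 in tSema4B unstimulated libraries, which overlapped. After NE the sums were 16220, 16981 and 17594 in vector and 17413, 17690 and 17526 in tSema4B libraries, which overlapped through the highest vector library. With NE 5 rose in vector cells, 27.8% of the list against 6.82% of all genes, led by Manf (log2 0.77 ± 0.15, limma adjusted p = 0.00158) and Atf6 (log2 0.62 ± 0.18, limma adjusted p = 0.0248), 1 rose in tSema4B cells, Xbp1 (log2 0.37 ± 0.11, limma adjusted p = 0.0385; 5.56% against 3.68% of all genes), and 0 fell in either line.

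The calls were also read against the CARE core described above. Of the 9 genes with a core, 0 were called lower in tSema4B cells without stimulation and 1, Chac1, after NE, which is 11.1% beside the 11.2% of all genes lower in that comparison. Of the 19 tested genes whose promoter held no core, 5 were called lower without stimulation and 9 after NE, 26.3% and 47.4% beside 7.39% and 11.2% of all genes. The median log2 fold changes of the genes with and without a core were -0.22 and -0.27 without stimulation and -0.25 and -0.36 after NE, and with NE in vector cells 0.29 and 0.34. These are descriptions of the window searched, and sites outside it were not searched.

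Levels could be compared between genes only per kilobase of exon. The length was that of all annotated exons of a gene merged, for Slc7a1 11.53 kilobases. Which transcripts were expressed was not tested, so the ranks hold for this length only. In vector unstimulated cells Asns led with 292 to 305 normalized counts per kilobase over the 3 libraries, followed by Atf5 with 252 to 304 and Psat1 with 238 to 297, and these 3 ranges overlapped, so their order was not resolved. Slc1a5, at 154 to 166 per kilobase, was ninth by mean. Its range overlapped those of Slc38a2 (159 to 163) and Ddit4 (142 to 165), so its place was not resolved from theirs. The lowest means were those of Slc7a1, with 6.93 to 8.95, and Stc2, with a mean of 0.885 normalized counts per kilobase. Slc7a1, the gene with the largest called rise with NE, ranked 35 of 36 by mean. Its range overlapped that of Atf3 (6.55 to 14.1), so the order of these 2 was not resolved.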

How the data were processed

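Full-length cDNA libraries of 12 samples were made by SMART-Seq2, which does not mark the strand. Per the study's methods and processing notes, reads were aligned to mm10 (GRCm38.p4) with STAR 2.7.9a and counted per gene with HTSeq, and the authors deposited counts divided by DESeq2 size factors, a signal on the scale of normalized read counts. The gene annotation, how strand was set and what was done with multi-mapped reads are not given in the sources used here. Every deposited value was a whole multiple of the value of 1 read in its library (100% within 0.01), so whole reads and depth were recovered.

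Values were taken as log2(normalized count + 1), and the 11998 of 48321 genes that reached 10 normalized counts in 3 or more of 12 libraries were fitted with limma 3.58.1 in R 4.3.3 (4 group means, empirical Bayes, Benjamini-Hochberg adjustment over all genes tested, threshold 0.05). Fold changes are on the log2(value + 1) scale and understate the change of low genes. Errors are SD over 3 libraries for means and SE for log2 fold changes. An exact permutation test of 3 against 3 libraries cannot go below p = 0.1 and was not used. The members and all lists were chosen with earlier results of these data known. Values in every library are given for Atf4, Atf3, Ddit3 and Asns and, per comparison and direction, for up to 5 called members, by size of the log2 fold change, with no overlap between groups; of other lists, up to 2 called genes. Ddit3 has 2 annotation entries.

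Alternatives were other pseudocounts, filters, scalings, fits on the compared libraries alone, a replicate block, leaving out each library, a fold threshold, and edgeR 4.0.16 and DESeq2 1.42.0 on the whole reads, which called 657 genes higher and 877 lower, and 768 and 915, between unstimulated tSema4B and vector cells, against 677 and 887 by limma. The fits were also tested on simulated data, from which no value is given or used here. No deposited column of per-sample values was left unused. The promoter sequence of 1 gene with a CARE core is not reported here.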

Additional observations from a re-analysis of the deposited data

How the results depend on the processing

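Of 30 called member results, 16 passed the test under every alternative that kept the adjusted p threshold, 14 lost the call under at least 1, 18 uncalled ones gained one under at least 1, and 0 changed direction; why was not tested. When the log2 difference also had to be 1 or more in size, the count of genes lower with tSema4B was 1 without stimulation and 0 after NE, and the counts with NE were 0 higher and 0 lower in vector and 0 higher in tSema4B cells. The count higher with tSema4B without stimulation, 0, was 1 with a filter at 50 normalized counts, with scaling to the same total, with edgeR and with DESeq2. After NE it was 3 with the filter at 50, 3 with scaling to the same total, 2 with quantile normalization, 1 with edgeR, 3 with DESeq2 and 1 in a fit on the compared libraries alone. The count higher with NE in vector cells, 7, was 4 with no filter and 12 in a fit on the compared libraries alone, which in tSema4B cells gave 1, and with quantile normalization 1 gene was lower with NE in tSema4B cells. Leaving out each library in turn gave 0 to 1 higher and 4 to 8 lower with tSema4B without stimulation, 0 to 2 higher and 9 to 11 lower after NE, 2 to 5 higher and 0 to 1 lower with NE in vector cells, and 1 to 3 higher and 0 to 1 lower with NE in tSema4B cells. Replicate numbers did not pair the libraries (r of deviations from -0.047 to 0.028 over 18 same-numbered pairs, 0 over 0.1). A fit with the replicate number as a block gave 0 higher and 7 lower, 0 and 12, 7 and 1, 2 and 0, and 0 and 0 for the comparisons in the order above and the interaction, with Mars the call lost (adjusted p = 0.0564). Depth limits low genes, since 1 read was worth 0.593 to 1.55 normalized counts.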
